A study of Mus musculus with 13 samples.

Results

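Transcripts of 10 genes that present antigens to T cells were followed in mouse sciatic nerves with and without Raptor in Schwann cells (SCs), 5 days after a crush and in the uninjured nerve of the other side. The genes were taken by name from a table of 40787 genes. Of these, 7 belong to the MHC class II route (H2-Aa, H2-Ab1, H2-Eb1, Cd74, Ciita, H2-DMa, and H2-DMb1) and 3 to the class I route (H2-K1, H2-D1, and B2m). All 10 had counts in all 13 libraries.

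All mice carried floxed Rptor alleles and received tamoxifen at 2 months of age, controls included. Their strain is labelled C57BL/6, and by the study's methods they had been backcrossed to C57B6/J. RaptorKO mice also carried a tamoxifen-inducible Cre that is active in SCs, whereas controls had no Cre. Sciatic nerves were crushed on 1 side 2 months after tamoxifen, and at 5 days post-crush (dpc) the injured nerve distal to the lesion and the contralateral nerve were taken. RNA came from whole nerves without the epineurium, and SCs were not purified. There were 3 control injured, 3 RaptorKO injured, 3 control contralateral, and 4 RaptorKO contralateral libraries. Library totals ranged from 8200458 to 13581775 counts. Levels are given as counts per 1000000 (CPM) after TMM scaling, a correction for differences in library composition.

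Class II molecules are displayed mainly by macrophages, dendritic cells, and B cells, and present peptides from engulfed material to CD4+ T cells. The alpha and beta chains pair in the endoplasmic reticulum with the invariant chain, which blocks the groove until it is degraded in endosomes, and DM then exchanges its last fragment for a peptide. Class I molecules are made by nearly all nucleated cells and show peptides from the cell's own proteins to CD8+ T cells. In peripheral nerve, resident and recruited macrophages are the main class II cells, and SCs can make class II under inflammatory conditions.

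Some libraries stood apart. Both control 3 libraries differed from the other 11 in sex-linked genes, with 1416.0 and 1465.5 CPM of Xist against 2.191 CPM or less. Summed adipocyte markers were highest in RaptorKO contralateral 3 (412 CPM), control contralateral 3 (127.4 CPM), and control injured 3 (85.48 CPM). Rptor itself was lower in every RaptorKO library than in every control library of the same side. Its log2 fold change was -1.0 (SE 0.12, adjusted p = 5.001e-04, quasi-likelihood test of edgeR, adjusted by Benjamini and Hochberg) in contralateral and -0.68 (SE 0.15, adjusted p = 0.0167) in injured nerves.

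The 10 genes lie on 4 chromosomes of GRCm38 (GENCODE M21). Chromosome 17 carries the MHC itself, in the order H2-K1 (33996017 to 34000347, minus strand), H2-DMa (34119541 to 34139101, plus), H2-DMb1 (34153072 to 34160230, plus), H2-Ab1 (34257689 to 34269419, plus), H2-Aa (34282744 to 34287823, minus), H2-Eb1 (34305867 to 34316674, plus), and H2-D1 (35262730 to 35267499, plus). Ciita lies on chromosome 16 (10480059 to 10528418, plus) and B2m on chromosome 2 (122147686 to 122153083, plus). H2-DMa shares 360 exonic bases with Brd2 on the other strand, and Ciita shares 329 with Dexi. The strand setting of the read counting is not given in the sources used here, so in these stretches the reads of both genes may not be told apart.

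Promoters are shown here for the genes whose levels moved in opposite directions on injury. Sequences are from RefSeq (build GRCm38.p6), run from 250 bases before to 50 bases after a transcript start, and were found for 7 of the 10 genes. Capitals mark the X box core GCAAC and the Y box ATTGG or their reverse complements (GTTGC and CCAAT). Class II promoters are known for an X box followed by a Y box, bound by the RFX complex and by NF-Y and read by the transactivator Ciita.
H2-Aa, chr17:34287774-34288073, minus strand: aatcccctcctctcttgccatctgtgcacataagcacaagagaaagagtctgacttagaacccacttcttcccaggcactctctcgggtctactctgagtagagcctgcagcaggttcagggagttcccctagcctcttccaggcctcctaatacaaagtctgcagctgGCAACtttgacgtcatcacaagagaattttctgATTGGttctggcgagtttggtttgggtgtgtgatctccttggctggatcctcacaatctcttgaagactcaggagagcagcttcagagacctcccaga
H2-Eb1, chr17:34305617-34305916, plus strand: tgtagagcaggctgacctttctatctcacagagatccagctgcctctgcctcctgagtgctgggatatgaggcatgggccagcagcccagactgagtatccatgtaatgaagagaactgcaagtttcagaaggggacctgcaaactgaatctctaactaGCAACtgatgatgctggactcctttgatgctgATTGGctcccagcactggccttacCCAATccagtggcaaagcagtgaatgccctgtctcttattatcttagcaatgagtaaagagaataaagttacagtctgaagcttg
H2-DMa, first start, chr17:34122582-34122881, plus strand: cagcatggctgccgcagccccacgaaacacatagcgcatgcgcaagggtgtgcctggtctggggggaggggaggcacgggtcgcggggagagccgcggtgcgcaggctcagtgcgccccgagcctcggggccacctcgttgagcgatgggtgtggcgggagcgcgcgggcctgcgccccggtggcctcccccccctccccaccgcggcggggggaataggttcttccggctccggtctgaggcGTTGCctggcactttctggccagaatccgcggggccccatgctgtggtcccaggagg
H2-DMa, next start, chr17:34125268-34125567, plus strand: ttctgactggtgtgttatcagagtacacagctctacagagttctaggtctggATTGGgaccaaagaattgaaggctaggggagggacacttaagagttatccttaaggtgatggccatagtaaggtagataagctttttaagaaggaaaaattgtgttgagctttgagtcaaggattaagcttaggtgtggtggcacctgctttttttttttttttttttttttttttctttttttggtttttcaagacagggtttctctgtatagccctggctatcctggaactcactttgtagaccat
H2-DMb1, chr17:34152941-34153240, plus strand: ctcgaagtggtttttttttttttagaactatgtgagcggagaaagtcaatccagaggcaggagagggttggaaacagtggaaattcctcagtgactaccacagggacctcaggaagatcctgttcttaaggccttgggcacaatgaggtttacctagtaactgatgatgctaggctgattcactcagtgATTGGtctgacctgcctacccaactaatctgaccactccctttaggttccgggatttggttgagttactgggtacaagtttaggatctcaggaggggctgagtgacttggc

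In H2-Aa the X box core began 81 bases before the start and the Y box began 33 bases further on, on the same strand. In H2-Eb1 the X box core began 91 bases before the start and the Y box began 32 bases further on. Such a pair within 40 bases on 1 strand was present in 1.56% of all 32851 promoters in the reference table. The H2-DMb1 window held a Y box 61 bases before the start and no exact GCAAC on either strand. Upstream of its Y box it held GTAAC, which differs from GCAAC in 1 letter. The same letters, TGATGATGCT, follow GTAAC in H2-DMb1 and GCAAC in H2-Eb1. Only exact letters were searched, so an X box that differs from GCAAC would have been missed. At the first H2-DMa start the window held a reverse GCAAC, and at the next a Y box 198 bases upstream. Alone, GCAAC was found in 35.2% and ATTGG in 37.4% of all promoters. These are matches of letters only, and no binding was measured.

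The next set shows the class I heavy chain H2-K1, with H2-D1 and B2m. Here capitals mark ATTGG and CCAAT, the kappaB motif GGGGATTCC, and the interferon-stimulated response element (GAAA, any 2 bases, GAAA).
H2-K1, first start, chr17:34000298-34000597, minus strand: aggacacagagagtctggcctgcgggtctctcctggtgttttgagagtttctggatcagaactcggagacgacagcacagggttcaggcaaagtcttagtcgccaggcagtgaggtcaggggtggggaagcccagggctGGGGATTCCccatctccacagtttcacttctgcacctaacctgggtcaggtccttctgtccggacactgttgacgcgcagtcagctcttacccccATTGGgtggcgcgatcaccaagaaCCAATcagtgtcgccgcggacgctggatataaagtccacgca
H2-D1, chr17:35262844-35263143, plus strand: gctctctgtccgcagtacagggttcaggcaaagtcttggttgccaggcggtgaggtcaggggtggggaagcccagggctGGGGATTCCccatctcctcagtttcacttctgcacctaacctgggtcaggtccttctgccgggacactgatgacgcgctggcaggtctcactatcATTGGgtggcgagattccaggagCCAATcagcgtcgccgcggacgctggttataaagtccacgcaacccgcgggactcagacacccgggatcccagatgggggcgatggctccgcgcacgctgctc
B2m, chr2:122147437-122147736, plus strand: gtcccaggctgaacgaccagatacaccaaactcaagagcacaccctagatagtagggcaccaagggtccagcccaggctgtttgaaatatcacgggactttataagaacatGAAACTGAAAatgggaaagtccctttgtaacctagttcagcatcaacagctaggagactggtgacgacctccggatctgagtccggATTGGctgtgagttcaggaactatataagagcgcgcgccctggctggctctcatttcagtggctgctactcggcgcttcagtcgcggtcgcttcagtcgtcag

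GGGGATTCC, a motif of NF-kappaB, stood 111 bases before the start of H2-K1 and 171 bases before that of H2-D1, and was present in 0.25% of all promoters. The B2m window held the response element 139 bases upstream, a motif found in 3.44% of all promoters. The X2 box core TGACG was searched too and was present in the windows of H2-Aa, H2-K1, H2-D1, and B2m, against 20.8% of all promoters. The gamma-activated site TTCNNNGAA was in none of the windows searched for these genes and in 8.3% of all promoters. GGGANTTCC, another kappaB motif, which cannot match the same letters as GGGGATTCC, was in the H2-Aa window and in 1.68% of all promoters.

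The first question was how injury changed these transcripts in control nerves. H2-Aa and H2-Ab1 encode the alpha and beta chains of I-A, the class II molecule of C57BL/6 mice. H2-Aa had 26.29, 38.87, and 43.43 CPM in control contralateral nerves and 211.2, 199.0, and 175.8 CPM in control injured nerves. Every injured library lay above every contralateral one, and the log2 fold change was 2.41 (SE 0.15, 5.3-fold, adjusted p = 5.234e-08, quasi-likelihood test of edgeR). H2-Ab1 had 22.74, 28.03, and 36.11 CPM in contralateral and 178.8, 181.3, and 146.8 CPM in injured controls. Its groups did not overlap either, and it rose 5.74-fold (log2 fold change 2.52, SE 0.15, adjusted p = 2.696e-08).

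H2-Eb1, the beta chain of I-E, had 18.74, 18.5, and 33.67 CPM in control contralateral nerves and 130.8, 144.8, and 126.0 CPM after injury. It rose 5.59-fold (log2 fold change 2.48, SE 0.19, adjusted p = 2.759e-07, edgeR). Cd74, the invariant chain (chromosome 18, 60803848 to 60812652, plus strand), was the most abundant class II transcript per length in injured nerves. Its levels were 87.34, 89.8, and 102 CPM in contralateral and 498.9, 497.0, and 313.5 CPM in injured controls, a 4.6-fold rise (log2 fold change 2.20, SE 0.17, adjusted p = 2.318e-07). Ciita, the transactivator, was close to the detection limit without injury, with 10, 21, and 18 counts in the control contralateral libraries. After injury the controls held 155, 93, and 58 counts, or 14.16, 8.528, and 5.679 CPM, and the log2 fold change was 2.66 (SE 0.41, adjusted p = 1.104e-04). The 3 injured controls thus differed more among themselves in Ciita than in the chains.

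**Figure D1:**
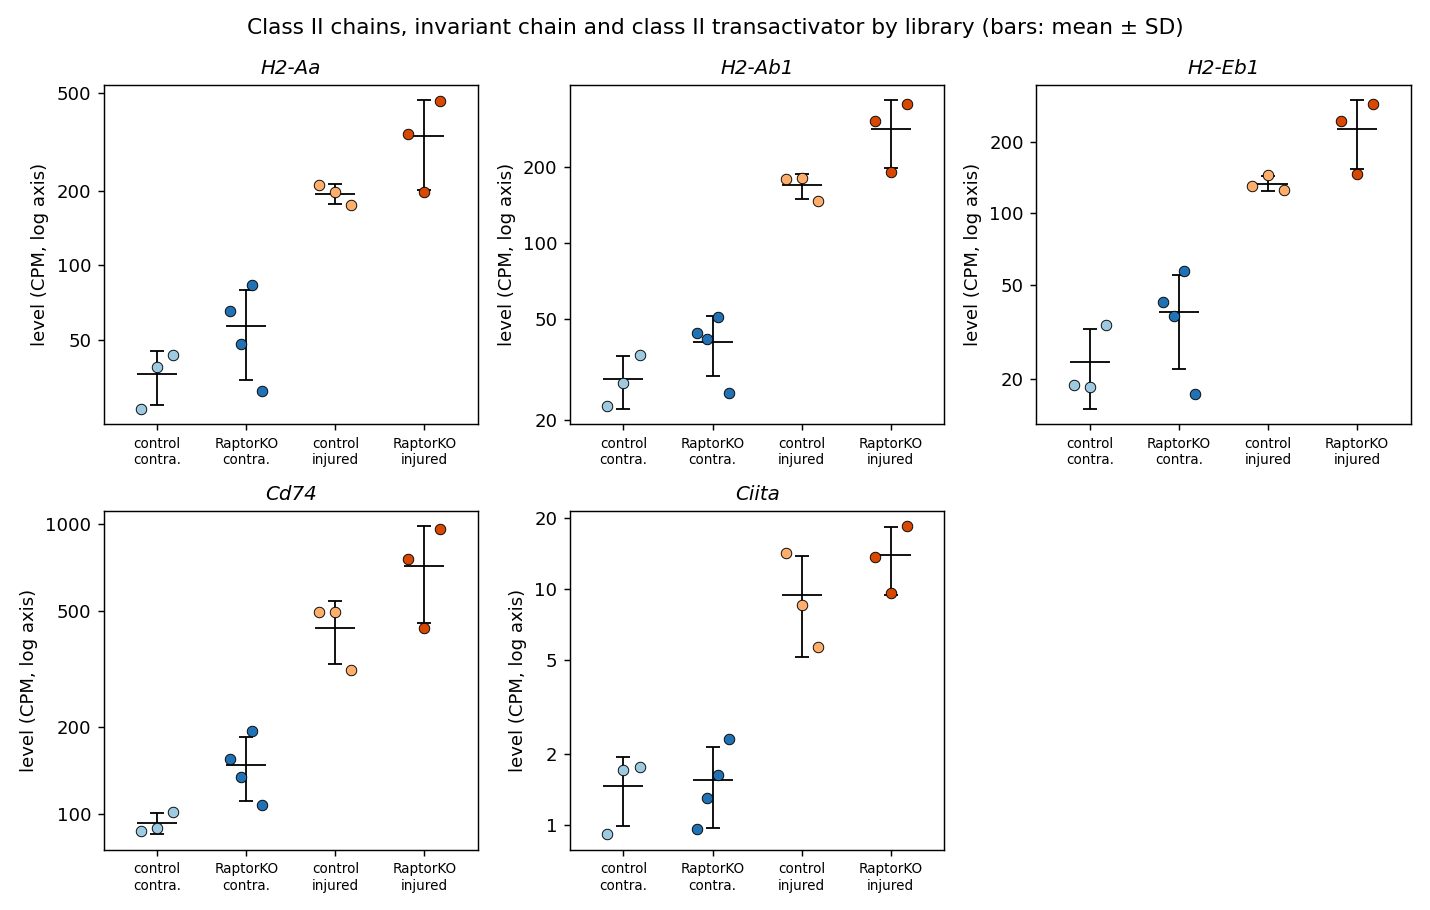
Levels (CPM, log axis) of H2-Aa, H2-Ab1, H2-Eb1, Cd74, and Ciita in each library of the 4 groups; points are libraries, and bars give the mean ± SD. All injured libraries lie above all contralateral ones in each panel, and 1 RaptorKO injured library (H2-Aa 198.3 CPM) lies at the level of the injured controls.

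The DM chains moved the other way. H2-DMa, the alpha chain of the peptide exchanger, had 128.2, 122.6, and 117.7 CPM in control contralateral nerves and 19.91, 26.5, and 15.18 CPM in control injured nerves. It fell 6.08-fold (log2 fold change -2.60, SE 0.16, adjusted p = 3.320e-08, quasi-likelihood test of edgeR). H2-DMb1, the beta chain, had 144.9, 144.6, and 140.1 CPM in contralateral controls and 23.47, 23.84, and 22.42 CPM in injured controls. It fell 6.27-fold (log2 fold change -2.65, SE 0.088, adjusted p = 2.246e-10). For both genes the groups were far apart, and the 3 injured controls held nearly equal amounts of H2-DMb1.

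Brd2, which overlaps H2-DMa, was also lower in injured controls but by less, with 304.8 to 312.5 CPM in contralateral and 222.6 to 244.9 CPM in injured nerves (log2 fold change -0.43, SE 0.093, adjusted p = 0.00158, edgeR). H2-DMb2, a close relative of H2-DMb1 with which it may share reads, had 0 to 0.6831 CPM in contralateral and 2.35 to 4.218 CPM in injured controls and was too low to be tested. RSEM gave H2-DMb1 a count that was not whole in 12 of 13 libraries, so part of its reads was shared out between genes. H2-DMa had whole counts in all 13. Per length, H2-Aa stood at 0.186 to 0.335 of the H2-DMa level in control contralateral libraries and at 6.82 to 10.5 times that level in control injured ones.

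**Figure D2:**
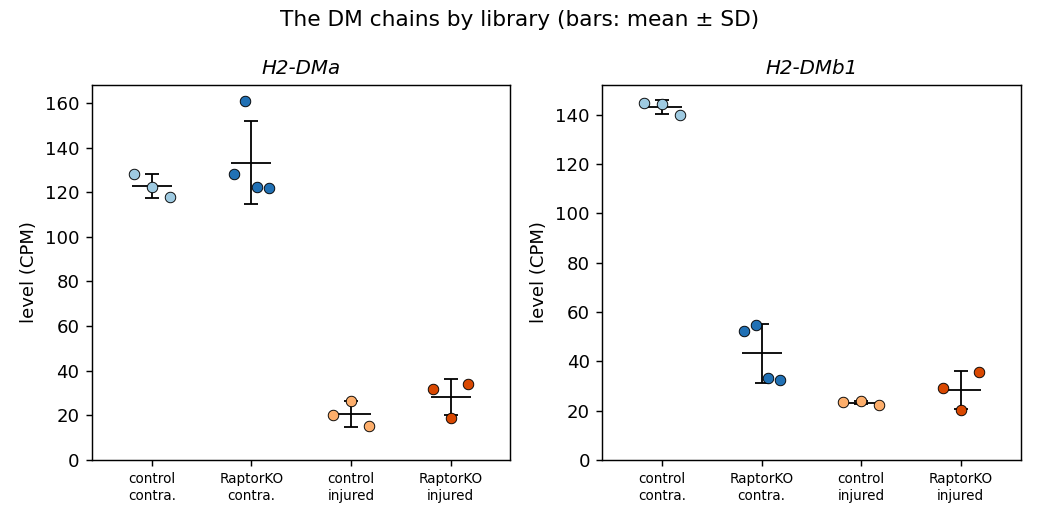
Levels (CPM, linear axes from 0) of H2-DMa and H2-DMb1 in each library; points are libraries, and bars give the mean ± SD. H2-DMa is high in both contralateral groups, whereas H2-DMb1 is above 140 CPM only in the 3 control contralateral libraries and at 54.87 CPM or less in the other 10.

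The class I genes changed far less. H2-K1, a heavy chain, had 150.7, 121.1, and 137.3 CPM in contralateral and 166.7, 188.6, and 202.4 CPM in injured controls (log2 fold change 0.42, SE 0.11, adjusted p = 0.00444, edgeR). H2-D1, the other classical heavy chain of this strain, had 195.6, 166.2, and 195.8 CPM in contralateral and 270.2, 283.7, and 301.5 CPM in injured controls (log2 fold change 0.59, SE 0.1, adjusted p = 3.239e-04). B2m, the light chain of all class I molecules, went the other way, from 1088.7, 1083.5, and 975.7 CPM to 872.9, 794.1, and 865.2 CPM (log2 fold change -0.34, SE 0.098, adjusted p = 0.00907). Its call was lost without control injured 2 (adjusted p = 0.0626). Both heavy chains had counts that were not whole in all 13 libraries, as RSEM splits reads that fit more than 1 gene. Per length, B2m stood at 9.25 to 11.9 times the sum of H2-K1 and H2-D1 in contralateral controls and at 5.3 to 6.29 times that sum in injured controls.

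**Figure D3:**
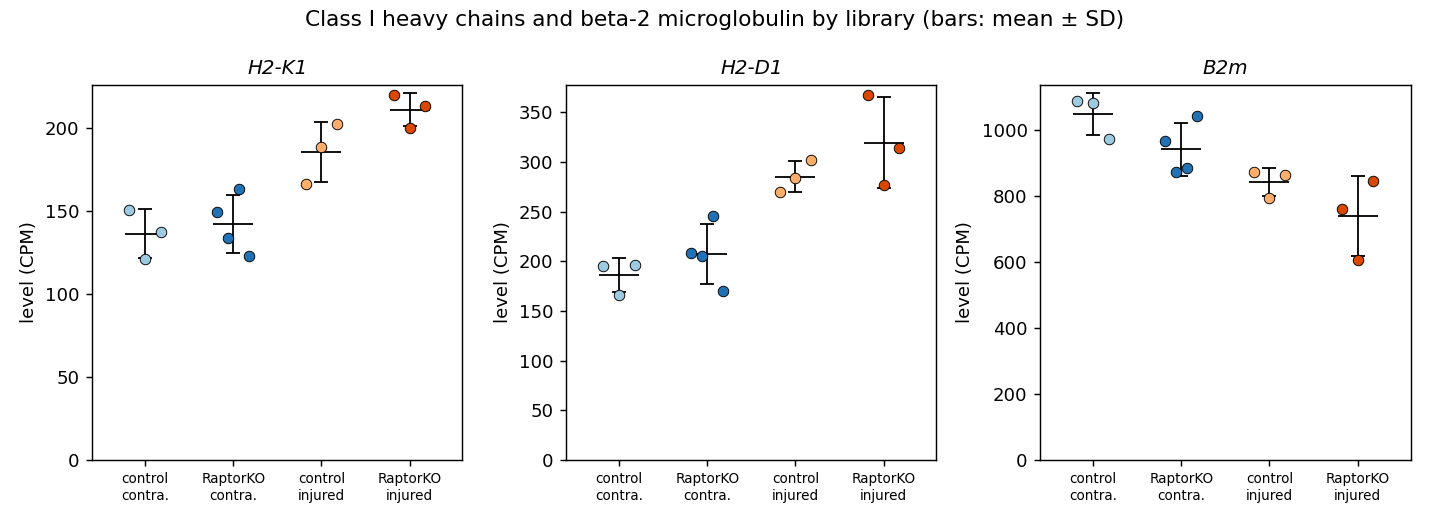
Levels (CPM, linear axes from 0) of H2-K1, H2-D1, and B2m in each library; points are libraries, and bars give the mean ± SD. H2-K1 and H2-D1 are somewhat higher and B2m somewhat lower in injured nerves, and the genotypes overlap in each panel.

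In control nerves injury thus raised 7 of the 10 genes and lowered 3. Injury changed most of the transcriptome, and of 12430 genes tested 32.4% were called higher and 32.9% lower. Libraries of the 2 groups did not overlap for any of the 10 genes, against 70.9% of all tested genes. The median log2 fold change was 1.40 over the 10 genes and -0.002 over all tested genes. Leaving out both control 3 libraries changed none of the 10 calls.

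The same comparison was made in RaptorKO nerves. Here too 7 genes rose and 3 fell, with 30.5% of 12515 genes called higher and 28.5% lower. H2-Aa had 65.51, 48.23, 83.63, and 30.93 CPM in RaptorKO contralateral and 342.7, 198.3, and 462.8 CPM in RaptorKO injured nerves (log2 fold change 2.54, SE 0.33, adjusted p = 7.015e-05, quasi-likelihood test of edgeR). The other class II genes that rose had log2 fold changes of 2.78 for H2-Ab1, 2.55 for H2-Eb1, 2.28 for Cd74, and 3.18 for Ciita (adjusted p 3.631e-06 to 7.004e-05). H2-DMa fell from 128.1, 160.9, 122.3, and 122 CPM to 31.81, 18.71, and 33.94 CPM (log2 fold change -2.25, SE 0.2, adjusted p = 4.386e-06). In class I the log2 fold changes were 0.56 for H2-K1 (adjusted p = 0.00106), 0.62 for H2-D1 (adjusted p = 0.00246), and -0.36 for B2m (adjusted p = 0.0314).

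H2-DMb1 was the exception in size. It had 52.39, 54.87, 33.28, and 32.22 CPM in RaptorKO contralateral and 29.24, 20.28, and 35.49 CPM in RaptorKO injured nerves. These groups overlapped, and the log2 fold change was -0.62 (SE 0.24, adjusted p = 0.0468, edgeR), a call lost without RaptorKO contralateral 1 or 2 (adjusted p = 0.115 each), RaptorKO injured 1 (adjusted p = 0.0978) or 2 (adjusted p = 0.169). B2m lost its own when RaptorKO contralateral 1 (adjusted p = 0.0692) or 4 (adjusted p = 0.0717) or RaptorKO injured 1 (adjusted p = 0.0645) or 2 (adjusted p = 0.112) was left out. The other 9 genes did not overlap between injured and contralateral RaptorKO nerves, against 60.6% of all genes tested.

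The next comparison was that of genotypes in contralateral nerves. H2-DMb1 was lower in RaptorKOs, with the 4 RaptorKO libraries (32.22 to 54.87 CPM) all below the 3 controls (140.1 to 144.9 CPM). The log2 fold change was -1.71 (SE 0.18, 3.26-fold lower, adjusted p = 2.184e-04, quasi-likelihood test of edgeR), and it was called under all 14 alternatives, with adjusted p up to 0.00247. H2-DMa, its partner chain, did not follow, with 117.7 to 128.2 CPM in controls and 122 to 160.9 CPM in RaptorKOs (log2 fold change 0.14, SE 0.11, adjusted p = 0.473). Per length, H2-DMa stood at 0.409 to 0.431 of the H2-DMb1 level in control contralateral libraries and at 1.19 to 1.85 times that level in RaptorKO contralateral ones. In injured nerves this ratio was 0.33 to 0.542 in controls and 0.45 to 0.531 in RaptorKOs. H2-DMb2 had 0.2134 to 0.7628 CPM in the RaptorKO contralateral libraries. The part of read sharing in the difference in H2-DMb1 was not tested.

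Cd74 was higher in RaptorKO contralateral nerves, at 155.1, 134.2, 193.8, and 107.7 CPM against 87.34, 89.8, and 102 CPM. The groups did not overlap, and the log2 fold change was 0.68 (SE 0.16, adjusted p = 0.0255, edgeR). This call was lost without control contralateral 1 (adjusted p = 0.108), 2 (adjusted p = 0.111), or 3 (adjusted p = 0.0583), without RaptorKO contralateral 1 (adjusted p = 0.0673), and with all 13 libraries in 1 fit (adjusted p = 0.0901). H2-Aa, H2-Ab1, and H2-Eb1 had log2 fold changes of 0.67, 0.51, and 0.72 that were not called (adjusted p = 0.173, 0.179, and 0.222). RaptorKO contralateral 4 lay within the control range for these 3 chains or below it, with 30.93 CPM of H2-Aa, 25.64 CPM of H2-Ab1, and 17.27 CPM of H2-Eb1. Without it the 3 chains were called higher (adjusted p = 0.0332, 0.0299, and 0.0348, edgeR). It was also the shallowest library.

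H2-K1 (log2 fold change 0.08, SE 0.11), H2-D1 (0.17, SE 0.11), and B2m (-0.14, SE 0.089) were not called (adjusted p 0.385 to 0.706, edgeR). Ciita had 9 to 21 counts in the 7 contralateral libraries and was not tested. Of 9 genes tested, 1 was called higher and 1 lower, where 4.49% of all 11878 tested genes were called higher and 5.68% lower. Cd74 and H2-DMb1 were also the 2 genes whose groups did not overlap, against 23.7% of all tested genes.

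In injured nerves the genotypes were compared at 5 dpc. H2-Ab1 had 302.8, 190.3, and 353.8 CPM in RaptorKO injured nerves against 178.8, 181.3, and 146.8 CPM in controls. H2-Eb1 had 245.4, 146.9, and 290.5 CPM against 130.8, 144.8, and 126.0 CPM. In both genes RaptorKO injured 2 lay barely above the highest control, and the other RaptorKO libraries clearly above. Both were called higher, with log2 fold changes of 0.75 (SE 0.19, adjusted p = 0.0315, quasi-likelihood test of edgeR) and 0.78 (SE 0.2, adjusted p = 0.0324).

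These calls were not stable. Leaving out control injured 1 ended that of H2-Ab1 (adjusted p = 0.0716), as did leaving out control injured 2 (adjusted p = 0.0809), or 3 (adjusted p = 0.129), RaptorKO injured 1 (adjusted p = 0.122) or 3 (adjusted p = 0.0802), or fitting all 13 libraries together (adjusted p = 0.0532). H2-Eb1 lost its call under the same 6 settings (adjusted p 0.0801 to 0.15).

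H2-Aa had 342.7, 198.3, and 462.8 CPM in RaptorKO injured nerves and 175.8 to 211.2 CPM in controls, so that the groups overlapped. Its log2 fold change of 0.79 (SE 0.23, adjusted p = 0.0601) missed the threshold but passed it with DESeq2 (adjusted p = 0.00253). Cd74 had 758.6, 437.8, and 961.6 CPM against 313.5 to 498.9 CPM, with a log2 fold change of 0.73 (SE 0.25, adjusted p = 0.104, edgeR). Without RaptorKO injured 2, H2-Aa (adjusted p = 7.385e-04) and Cd74 (adjusted p = 0.00465) were both called higher, so that 4 genes were called in place of 2.

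The remaining genes were not called in injured nerves. Ciita had 13.69, 9.592, and 18.48 CPM in RaptorKOs (log2 fold change 0.57, SE 0.32, adjusted p = 0.351, edgeR). H2-DMa (0.47, SE 0.24, adjusted p = 0.305) and H2-DMb1 (0.30, SE 0.19, adjusted p = 0.417) overlapped between genotypes. In class I, the log2 fold changes were 0.20 for H2-K1 (SE 0.11), 0.18 for H2-D1 (SE 0.12), and -0.18 for B2m (SE 0.13), with adjusted p from 0.341 to 0.513. Thus 2 of 10 genes were called higher and 0 lower, where 4.09% of the 12040 tested genes were called higher and 4.44% lower. At an unadjusted p below 0.05, 4 of the 10 were higher and 0 lower. Over all 12040 tested genes, 2594 had an unadjusted p below 0.05 in either direction. The 2 called genes did not overlap between genotypes, against 26.2% of all tested genes. The median log2 fold change was 0.52 over the 10 genes and 0.001 over all genes tested.

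**Figure D4:**
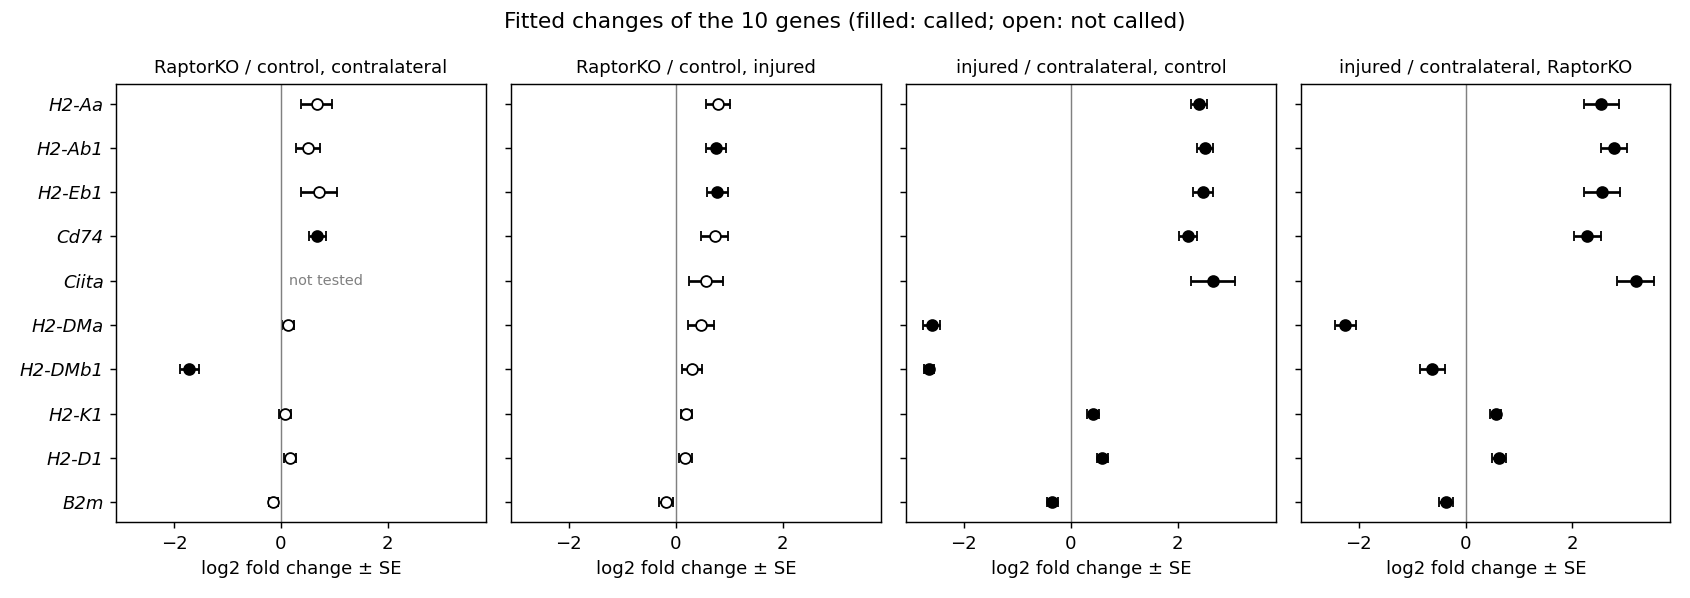
Fitted log2 fold changes ± SE of the 10 genes for RaptorKO over control and for injured over contralateral nerves; filled points were called and open points were not, and Ciita was not tested in contralateral nerves. H2-DMa and H2-DMb1 lie opposite to the other class II genes on injury, and H2-DMb1 is the gene called lower in contralateral RaptorKO nerves.

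Whether injury acted differently in the 2 genotypes was tested as an interaction. H2-DMb1 was called, with a log2 difference of 2.01 between the injury effects (SE 0.29, adjusted p = 0.00247, quasi-likelihood test of edgeR). It was called under all alternatives run. Of 12851 genes tested, 1.07% were more positive and 1.41% more negative in injured nerves. The other 9 genes were not called, with log2 differences of -0.04 for B2m to 0.49 for Ciita (adjusted p 0.689 to 0.994). The SEs of the chains were 0.33 for H2-Ab1 to 0.45 for H2-Eb1. In the same test Ctss, with a value of -1.51 and an SE of 0.36, passed the threshold narrowly (adjusted p = 0.0415). Differences between genotypes in the injury response of the chains could therefore be several times their SEs and still be missed.

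Ordered by level per length (CPM per 1000 bases of exon), the genes ranked as follows. In control contralateral nerves B2m led with 1220.1 ± 74.2 (SD, n = 3), followed by H2-DMb1 (85.2 ± 1.60), H2-D1 (72.1 ± 6.59), Cd74 (55.4 ± 4.67), H2-K1 (46.4 ± 5.04), and H2-DMa (35.6 ± 1.52). H2-Eb1 (12.2 ± 4.47), H2-Ab1 (11.3 ± 2.62), and H2-Aa (9.53 ± 2.34) followed and did not differ beyond their spread, and Ciita was last with 0.153 ± 0.05. Cd74 and H2-K1 also lay within 1 SD of each other's range. In RaptorKO contralateral nerves (n = 4) H2-DMb1 came after H2-DMa, at 25.7 ± 7.20 against 38.7 ± 5.38.

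In control injured nerves Cd74 was second to B2m with 260 ± 63.4 per 1000 bases, and H2-D1 followed with 111 ± 6.09. H2-Eb1 (68.9 ± 5.02), H2-Ab1 (65.8 ± 7.5), and H2-K1 (63.3 ± 6.13) did not differ beyond their spread, and the DM chains came after H2-Aa (51.4 ± 4.74) with 13.8 ± 0.438 for H2-DMb1 and 5.95 ± 1.65 for H2-DMa. In RaptorKO injured nerves Cd74 reached 428 ± 157, and H2-D1 (124 ± 17.7), H2-Eb1 (117 ± 37.8), and H2-Ab1 (110 ± 32.6) had ranges of 1 SD that overlapped.

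Within groups the class II chains varied together. After each library was centred on its group mean, Pearson's r of log2 CPM over the 13 libraries was 0.96 between H2-Aa and H2-Ab1, 0.95 between H2-Ab1 and H2-Eb1, and 0.88 between H2-Aa and Cd74. H2-K1 and H2-D1 had r = 0.85, whereas B2m had -0.08 with H2-K1. Ciita had 0.25 with H2-Aa, and H2-DMa and H2-DMb1 had 0.68 with each other. These values are descriptions, since the genes share their libraries, and both heavy chains share reads.

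Among 12828 genes, those closest to the mean profile of H2-Aa, H2-Ab1, H2-Eb1, and Cd74 over the 13 libraries were Mfap2 (r = 0.986), Slfn2 (0.982), Cct8 (0.982), Rgs2 (0.979), and Piezo1 (0.979). Centred on group means, they were Rgs2 (0.941), Ppargc1a (0.937), Pla2g15 (0.936), Arf1 (0.936), and Tlr6 (0.928). For class I they were Hps5 (0.925), Slfn8 (0.922), Smpdl3a (0.920), Armc6 (0.919), and Pdgfrl (0.911), and centred on group means Tmem164 (0.904), Pdgfrl (0.901), Hps5 (0.896), Ccdc191 (0.895), and Vegfd (0.894). B2m itself had r = -0.353 with the class I profile, so this profile is that of the heavy chains. For the DM chains, which were looked at after their values were seen, the closest were Stmn3 (0.993) and Nedd9 (0.992) for H2-DMa and Ctns (0.967) and Tmem176a (0.947) for H2-DMb1.

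The other genes of the class II route included 11 genes of the table, of which 7 were tested. Injury in controls raised 5 of them and lowered 2, where 32.4% of all tested genes were called higher and 32.9% lower, with a median log2 fold change of 1.53 against -0.002 for all genes tested. The endosomal proteases Ctss (5.36, SE 0.2, adjusted p = 6.162e-10, edgeR), Lgmn (3.55, SE 0.13, adjusted p = 4.361e-10), and Ctsl (1.53, SE 0.12, adjusted p = 2.290e-07), which degrade the invariant chain and antigens, rose. So did Ifi30, a lysosomal thiol reductase that unfolds antigens (1.90, SE 0.12, adjusted p = 3.861e-08). Of the RFX complex, Rfx5 rose (0.60, adjusted p = 0.0379), and Rfxap (-0.73, adjusted p = 0.00821) and Rfxank (-0.56, adjusted p = 0.0125) fell. In RaptorKO nerves 5 rose and 1 fell, where 30.5% of all tested genes were called higher and 28.5% lower. The values were 3.87 for Ctss (adjusted p = 5.389e-07, edgeR), 3.76 for Lgmn, 1.56 for Ifi30, and 1.06 for Ctsl.

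Between genotypes, Ctss (1.17, SE 0.22, adjusted p = 0.00879, edgeR) and Ifi30 (0.71, SE 0.12, adjusted p = 0.00416) were higher in RaptorKO contralateral nerves. Leaving out control contralateral 2 ended the call of Ctss (adjusted p = 0.0521). In injured nerves Ctsl was lower in RaptorKOs (-0.50, SE 0.12, adjusted p = 0.028), a call that ended when control injured 2 or 3 or RaptorKO injured 1 or 2 was left out (adjusted p = 0.0796, 0.0912, 0.0937, and 0.0682). The interaction was called for Ctss at -1.51 (SE 0.36, adjusted p = 0.0415) and lost without control contralateral 1 or 2, RaptorKO contralateral 1 or 4, control injured 2 or 3, or RaptorKO injured 1 (adjusted p 0.054 to 0.124).

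In the class I supply and loading list, all 12 genes were tested in the injury comparison of controls, and 6 rose and 0 fell, where 32.4% of all tested genes were called higher and 32.9% lower. These were the immunoproteasome subunits Psmb9 (1.0, SE 0.31, adjusted p = 0.0146, edgeR) and Psmb8 (0.62, adjusted p = 0.00998), the peptide transporter Tap1 (0.68, adjusted p = 0.0111), the chaperones Pdia3 (1.31, SE 0.1, adjusted p = 2.529e-07) and Calr (1.13, SE 0.1, adjusted p = 1.443e-06), and the class I transactivator Nlrc5 (0.83, SE 0.26, adjusted p = 0.0147). Leaving out both control 3 libraries ended the calls of Psmb9 (adjusted p = 0.0715) and Nlrc5 (adjusted p = 0.0532). In RaptorKO nerves 7 rose and 1 fell, against 30.5% and 28.5% of all tested genes, with 1.12 for Psmb9, 1.10 for Pdia3, 1.08 for Nlrc5, and 1.02 for Calr. Between genotypes edgeR called 0 of 12 in injured and 0 of 11 in contralateral nerves, with 1 each at an unadjusted p below 0.05 and 0 called by DESeq2.

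Of 14 nonclassical class I genes, 7 were tested on injury in controls. H2-Q6 (-1.08, SE 0.32, adjusted p = 0.0102, edgeR), H2-Q4 (-0.61, SE 0.16, adjusted p = 0.0044), and H2-Q7 (-0.59, SE 0.2, adjusted p = 0.0216) fell, and H2-T22 rose (0.35, SE 0.14, adjusted p = 0.0468). In controls the call of H2-T22 was lost with DESeq2 (adjusted p = 0.0535), with the exact test of edgeR (adjusted p = 0.0517), and without control contralateral 1 or 2 or control injured 2 or 3 (adjusted p 0.0576 to 0.189), and that of H2-Q7 without control contralateral 1 or 3 or control injured 1 or 2 (adjusted p 0.0559 to 0.082). In RaptorKO nerves H2-Q6 (-0.62, adjusted p = 0.0179) and H2-Q4 (-0.51, adjusted p = 0.0105) fell, and H2-M3 (1.24, adjusted p = 0.0323) and H2-T22 (0.34, adjusted p = 0.0294) rose. The RaptorKO call of H2-T22 was lost under 8 of 14 alternatives, among them DESeq2 (adjusted p = 0.0517), no count filter (adjusted p = 0.0521), the replicate block (adjusted p = 0.0743), and leaving out any of RaptorKO contralateral 2, 3, or 4 or RaptorKO injured 1 or 3 (adjusted p up to 0.112). That of H2-M3 was lost without RaptorKO contralateral 2 or any of the RaptorKO injured libraries (adjusted p 0.0541 to 0.101), and that of H2-Q6 without RaptorKO contralateral 3 or RaptorKO injured 3 and with all 13 libraries fitted together (adjusted p 0.0514 to 0.0617). These genes are near copies of each other and of H2-K1 and H2-D1, so the split of reads among them is uncertain. Between genotypes edgeR called 0 of 7 in injured and 0 of 6 in contralateral nerves, with 1 each at an unadjusted p below 0.05 and 1 each called by DESeq2.

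Interferon gamma is the classical inducer of Ciita. Ifng had 0 counts in all 13 libraries, which allows up to 3 counts, or 0.221 to 0.366 CPM, in a library, for counting error only. In controls injury raised Socs1, a feedback inhibitor of the pathway (2.39, SE 0.49, adjusted p = 0.00105, edgeR), Jak1 (0.72, SE 0.11, adjusted p = 1.195e-04), and the receptor chain Ifngr2 (0.66, SE 0.097, adjusted p = 8.321e-05). These were 3 of the 7 genes tested, where 32.4% of all tested genes were called higher. The kinase Jak2 fell (-0.83, SE 0.1, adjusted p = 1.700e-05). In RaptorKO nerves Jak1 (0.69, adjusted p = 0.00101) and Ifngr2 (0.66, adjusted p = 1.975e-04) rose. Jak2 was lower in RaptorKO than in control contralateral nerves (-0.58, SE 0.1, adjusted p = 0.00606).

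Of 7 costimulation genes, whose products give T cells their second signal or restrain them, 4 were tested on injury and 3 rose in both genotypes, where 32.4% of all tested genes were called higher in controls and 30.5% in RaptorKOs. In controls these were Cd83 (2.15, SE 0.23, adjusted p = 5.752e-06, edgeR), Icosl (1.59, SE 0.25, adjusted p = 1.284e-04), and Cd86 (1.08, SE 0.33, adjusted p = 0.0129). In RaptorKOs the values were 2.26, 1.42, and 1.46 (adjusted p 1.978e-04 to 0.00151). Between genotypes edgeR called 0 of 4 in injured and 0 of 2 in contralateral nerves, with 2 and 1 at an unadjusted p below 0.05, and DESeq2 called 1 in injured nerves. Over all tested genes, 2594 of 12040 in injured and 2955 of 11878 in contralateral nerves had an unadjusted p below 0.05.

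Transcripts of the cells that carry class II were followed too, and in whole nerve fewer cells of a type and less RNA per cell cannot be told apart. The sum of 15 macrophage markers was 350 to 422 CPM in control contralateral, 539.8 to 614.9 CPM in RaptorKO contralateral, 3400.7 to 4284.1 CPM in control injured, and 2450.7 to 4727.6 CPM in RaptorKO injured nerves. Of those tested, 13 of 14 rose on injury in controls and 12 of 14 in RaptorKOs, against 32.4% and 30.5% of all tested genes. In contralateral nerves 7 of 10 were higher in RaptorKOs, where 4.49% of all tested genes were called higher. Among the 7 were Csf1r (0.94, adjusted p = 0.00215, edgeR), Cd163 (1.12, adjusted p = 0.001), and Mrc1 (0.78, adjusted p = 0.0371). In injured nerves edgeR and DESeq2 each called 0 of 14 between genotypes, and 0 had an unadjusted p below 0.05. RaptorKO injured 2 had the lowest macrophage sum of the injured nerves and the lowest class II levels of the RaptorKO injured nerves. The part of these cells in the class II values was not tested.

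Set against this sum, H2-Aa, H2-Ab1, H2-Eb1, and Cd74 together gave 22.4 to 24.5 CPM per 100 CPM of macrophage markers in control injured libraries and 34.9, 39.7, and 44.5 in RaptorKO injured libraries, which did not overlap. In contralateral libraries the values were 36.8, 43.3, and 61.5 in controls and 56.2, 46.3, 71.5, and 29.5 in RaptorKOs, which overlapped. This ratio was formed after the values were seen and has no test. It leans on single markers. Lyz2 made up a large part of the macrophage sum in injured nerves, with means of 1942.9 CPM in controls and 1676.1 CPM in RaptorKOs. Mertk did so in contralateral nerves, with means of 162.5 CPM in controls and 145.9 CPM in RaptorKOs. H2-DMa and H2-DMb1 together gave 64.7 to 73.7 CPM per 100 in control contralateral, 25.1 to 38.3 in RaptorKO contralateral, 1.01 to 1.21 in control injured, and 1.29 to 1.59 in RaptorKO injured libraries.

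**Figure D5:**
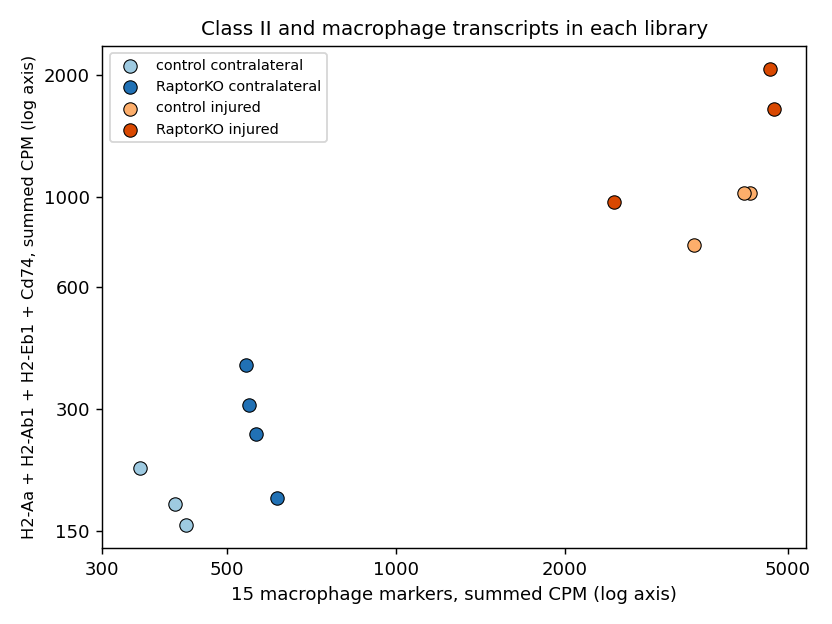
Summed CPM of H2-Aa, H2-Ab1, H2-Eb1, and Cd74 against summed CPM of 15 macrophage markers (log axes), 1 point per library. Injured libraries lie high on both axes, and the 3 RaptorKO injured libraries (973.3 to 2068.6 CPM of class II) lie higher for their macrophage sum than the 3 control injured ones (762.1 to 1022.1 CPM).

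The 10 dendritic cell markers summed to 25.96 to 29.74 CPM in control contralateral, 30.3 to 45.56 in RaptorKO contralateral, 94.78 to 112.7 in control injured, and 97.09 to 147.7 in RaptorKO injured nerves. Of the 6 tested on injury, Itgax, Flt3, Cd209a, Irf8, and Clec10a rose in both genotypes, with log2 fold changes of 2.22 to 5.65 in controls, and none of these 5 was called between injured genotypes (adjusted p 0.107 to 0.91, edgeR). Zbtb46, a transcription factor that endothelial cells also express, went against them. It fell on injury (-1.81 in controls, adjusted p = 8.391e-06) and was higher in RaptorKO than in control injured nerves (1.0, SE 0.25, adjusted p = 0.0291). The sum of 9 B cell markers was 6.459 to 24.43 CPM over all libraries. Of these genes Ighm alone was high enough to be tested, and Ms4a1 had at most 5.85 and Pax5 at most 9 counts in any library. T and NK cell markers summed to 1.603 to 6.057 CPM in contralateral and 8.176 to 27.03 CPM in injured nerves, with Cd3d at most 1 and Cd3e at most 5 counts. Most of the injured sum was Cd4, with a mean of 16.19 CPM in controls and 6.947 CPM in RaptorKOs. Cd4 was the 1 gene of this list high enough to be tested, and it was called higher on injury in both genotypes. Between injured genotypes its log2 fold change was -1.21, lower in RaptorKOs, and the quasi-likelihood test did not call it. Its unadjusted p in that test was below 0.05, and DESeq2 and the exact test of edgeR called it. Neutrophil markers summed to 2.213 to 7.217 CPM in contralateral and 24.84 to 53.74 CPM in injured nerves. Csf3r made up most of the injured sum, with a mean of 40.15 CPM in controls and 30.33 CPM in RaptorKOs. In each genotype 2 of 2 tested were called higher on injury, against 32.4% of all tested genes in controls and 30.5% in RaptorKOs. Ly6g was at 0 in all 13 libraries. Markers of SCs summed to 58366.3 to 73584.1 CPM in contralateral and 3830.6 to 5872.5 CPM in injured nerves, and were abundant in each library.

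Other cell types moved with genotype as well. Over all tested genes, 4.49% were called higher in contralateral and 4.09% in injured RaptorKO nerves. Mast cell markers summed to 8.712 to 61.04 CPM in controls and 83.63 to 201.2 CPM in RaptorKOs of both sides. Of those tested, edgeR called 2 of 5 higher in contralateral and 5 of 6 in injured nerves, and DESeq2 called 0 and 2. Endothelial markers summed to 222.8 to 358.9 CPM in control injured and 410.6 to 612.8 CPM in RaptorKO injured nerves, and 5 of 6 were called higher. Fibroblast markers summed to 4711.8 to 5616.5 CPM in control contralateral and 7568.1 to 10381.9 CPM in RaptorKO contralateral nerves, and to 4557.0 to 6977.2 CPM in control injured and 6296.1 to 10505.8 CPM in RaptorKO injured nerves. Of the 5 tested, 3 were called higher in contralateral and 2 in injured RaptorKO nerves. Erythrocyte markers summed to 73.6 to 138.6 CPM in control contralateral and 139 to 254.9 CPM in RaptorKO contralateral nerves, and to 5.937 to 24.77 CPM in control injured and 46.3 to 75.47 CPM in RaptorKO injured nerves. Of those tested, 2 of 4 in contralateral and 3 of 3 in injured nerves were called higher. Their part in the levels of the 10 genes was not tested.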

How the data were processed

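RNA was sequenced from 13 sciatic nerves, 1 library per nerve. The authors trimmed the reads with Trimmomatic, and obtained gene levels with RSEM 1.2.22 on GRCm38, and they deposited expected counts for 40787 genes, not normalized for depth. These were rounded to whole numbers. Gene IDs were matched to symbols through GENCODE M21 (40550 matched).

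The analysis used edgeR 4.0.16 in R 4.3.3 (TMM factors, quasi-likelihood test) and, as an alternative, DESeq2 1.42.0 and the exact test of edgeR that the study used. Tests covered genes with 50 or more counts in 2 or more of the compared libraries. Calls were made at a Benjamini-Hochberg adjusted p below 0.05, over all tested genes, with a fold change above 1.2. The procedure was tested on simulated data. Groups were taken from the sample labels. The crush was unilateral, contralateral nerves are given as those of the injured ones, and the 2 libraries numbered 3 of controls alone share a sex-linked signal, so equal numbers within a genotype were taken to mark 1 mouse (correlation of deviations 0.0674 to 0.305 in controls and -0.0239 to 0.211 in RaptorKOs). The injury and interaction fits had no block for the mouse, and the block was run as an alternative. Levels per length use the summed exons of a gene. Motifs were searched on both strands. Figures were drawn with matplotlib 3.10.9.

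All 10 genes were named in every comparison. From each further list, the called genes with the largest changes, at most 4 per comparison, were named with their errors, and others were added after their values were seen. Genes of like pattern were the 5 with the highest Pearson's r of log2 CPM. The members and lists were chosen with earlier results of these data known. H2-Ea and H2-Ea-ps were not used here, and some genes of the lists are not reported here.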

Additional observations from a re-analysis of the deposited data

Results flagged for a closer look

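H2-DMb1 differed between genotypes in its response to injury (interaction 2.01 on the log2 scale, adjusted p = 0.00247, quasi-likelihood test of edgeR), from a 6.27-fold fall in controls to a 1.53-fold fall in RaptorKOs. Ctss also differed (-1.51, adjusted p = 0.0415), with log2 fold changes of 5.36 in controls and 3.87 in RaptorKOs. This call of Ctss was lost under 8 of 19 alternatives. In the same test 13 of 14 macrophage markers had values below 0 and 1 above, with a median of -0.66. Of these markers 2 were called more negative, where 1.41% of all tested genes were.

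In RaptorKO contralateral nerves, H2-DMa was higher in library 2 (160.9 CPM) than in the other 3 (122 to 128.1 CPM), a gap larger than the critical value of Dixon's test for 4 samples. About 1 in 20 groups is expected to pass this limit by chance, and 10 genes were looked at.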

How the results depend on the processing

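The rises of H2-Aa, H2-Ab1, H2-Eb1, Cd74, Ciita, H2-K1, and H2-D1 on injury and the fall of H2-DMa kept their calls and directions in both genotypes under all alternatives run, as did the lower H2-DMb1 in RaptorKO contralateral nerves and its interaction. The genotype effects on the class II chains did not. In injured nerves the genes called higher went from 2 to 4 with no count filter and to 0 with all 13 libraries in 1 fit, and ranged from 0 to 4 when 1 library was left out. In contralateral nerves they went from 1 to 0 with all 13 libraries in 1 fit and ranged from 0 to 4 without 1 library. The genes lowered by injury in RaptorKOs ranged from 1 to 3 of 3 without 1 library. Over all genes, the calls between injured genotypes went from 1028 to 1556 with no count filter and ranged from 447 to 999 without 1 library, and between contralateral genotypes from 525 to 1418 (1208 with all libraries). Interaction calls over all genes went from 318 to 598 with DESeq2 and to 113 without both control 3 libraries, an alternative chosen after seeing the data, and ranged from 132 to 284 without 1 library. Fewer libraries were tested in the latter settings, and the cause of the other shifts was not tested.

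Interaction values near 0 changed sign. Without both control 3 libraries they were -0.10 for H2-Aa, -0.04 for H2-Ab1, -0.33 for H2-Eb1, -0.21 for Cd74, and 0.03 for B2m. With DESeq2 and with RLE size factors H2-D1 was at -0.01. Without 1 library they ranged from -0.19 to 0.38 for H2-Aa, -0.29 to 0.29 for H2-Eb1, -0.21 to 0.31 for Cd74, -0.11 to 0.10 for H2-D1, and -0.15 to 0.09 for B2m.

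Between genotypes equal replicate numbers are different mice, and they did not pair the libraries. The correlation of deviations from group means was -0.0495 to 0.0267 in the same-numbered pairs of injured genotypes and 0.0724 to 0.301 in those of contralateral genotypes, and in neither were all 3 pairs over 0.1 or every library closest to its own number. With the replicate block the genes called higher were 0 in injured and 4 in contralateral nerves, and all calls went from 1028 to 796 and from 1208 to 1810. Within genotypes, where equal numbers were taken to mark 1 mouse, the replicate block changed no injury or interaction call of the 10 genes and, of the other named genes, that of H2-T22 in RaptorKOs. It gave 8026 and 7267 injury calls in controls and RaptorKOs and 353 interaction calls, and interaction values of -0.15 for H2-Aa, -0.26 for H2-Eb1, -0.10 for Cd74, -0.08 for H2-D1, and 0.00 for B2m. RaptorKO contralateral 4 has no partner and did not inform the blocked values.

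Ciita had too few counts in contralateral nerves to be tested, and levels of near copies such as H2-K1 and H2-D1 depend on how RSEM shared out reads. Groups of 3 or 4 libraries leave moderate differences in the class II chains unresolved.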
